A study of Mus musculus with 12 samples.

Results

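The expression of 10 genes of reactive oxygen species metabolism was examined in cultured mouse cardiac fibroblasts with and without loss of Smad7, the inhibitory Smad. The genes were taken by name from a table of 35275 genes: the NADPH oxidase subunits Nox4, Cybb and Cyba, the superoxide dismutases Sod1, Sod2 and Sod3, catalase (Cat), heme oxygenase 1 (Hmox1), Nqo1 and Gclc. All 10 passed the filter on low counts, as did 15150 genes in all. The 12 libraries of polyadenylated RNA fell into 4 conditions of 3: unstimulated control, TGF-β1-stimulated control, unstimulated Smad7-KO and TGF-β1-stimulated Smad7-KO. Cells of all 4 conditions were at passage 2 and came from hearts of 12-week C57BL/6 mice with floxed Smad7, so the controls carried the floxed alleles too. Adenovirus was given for 48 hours at 100 MOI, expressing Cre in the Smad7-KO arms and GFP in the control arms per the labels. The study's methods instead describe the control virus as empty. Cre and loss of Smad7 coincide in these groups, so their effects cannot be told apart. TGF-β1 was used at 10 ng/ml. Its duration is given as 2 hours in the treatment field of the samples and as 4 hours in the protocol. The series describes the 3 samples of a condition as independent, but no source ties them to separate mice, so the p-values measure the spread between these samples.

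NADPH oxidases transfer electrons from NADPH across a membrane to oxygen. The phagocyte oxidase has Cybb (gp91phox, also called NOX2) as its catalytic subunit and Cyba (p22phox) as the partner that stabilizes it, and it is switched on by cytosolic subunits. Nox4 also needs Cyba, but is regulated mainly by its amount and is a known TGF-β-responsive gene of fibroblasts. Superoxide dismutases turn superoxide into hydrogen peroxide, which catalase and the glutathione and peroxiredoxin systems remove. Hmox1, Nqo1 and Gclc are classic targets of the transcription factor Nrf2.

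The upstream sequences of 3 members are shown: the catalytic subunits Nox4 and Cybb, which the results on the oxidase balance compare, and Sod1, the member with a match to the antioxidant response element core. The windows were from RefSeq on GRCm38.p6, and 7 of the 10 members had one. Hmox1, Gclc and Sod3 had no window and are named only. The 250 bases before the RefSeq start of Nox4 are at chr7:87246399-87246648 on the plus strand. Those of Cybb are at chrX:9469325-9469574 on the minus strand. Both windows lie within the annotated range of their gene but hold 0 annotated exon bases. The Sod1 stretch of 60 bases is at chr16:90220681-90220740 on the plus strand and ends just before the annotated Sod1 gene. In capitals are matches to CAGAC, the Smad-binding core, in Nox4 and to TGACNNNGC, the antioxidant response element core, in Sod1. Both matches lie on the minus strand, so the printed plus-strand letters are GTCTG and GCGTGGTCA. No letters are in capitals in Cybb.

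Nox4: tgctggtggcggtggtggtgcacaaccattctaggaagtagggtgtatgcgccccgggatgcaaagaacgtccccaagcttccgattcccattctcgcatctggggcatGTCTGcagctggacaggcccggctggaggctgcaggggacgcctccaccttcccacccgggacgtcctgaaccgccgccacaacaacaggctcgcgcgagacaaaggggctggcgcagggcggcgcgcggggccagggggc
Cybb: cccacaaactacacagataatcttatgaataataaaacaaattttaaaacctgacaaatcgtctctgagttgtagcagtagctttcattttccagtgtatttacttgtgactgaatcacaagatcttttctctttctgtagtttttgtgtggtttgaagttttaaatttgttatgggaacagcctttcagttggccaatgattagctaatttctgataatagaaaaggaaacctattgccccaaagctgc
Sod1: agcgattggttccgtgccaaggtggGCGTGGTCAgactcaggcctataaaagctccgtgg

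Both strands of the 250 upstream bases were searched. CAGAC was in 2 of the 7 members, Nox4 and Sod1, against 42.2% of 32851 windows of the same length. The Sod1 match to CAGAC shares letters with its TGACNNNGC match, and TGACNNNGC was in 1 of the 7 members, against 10.2% of windows. GAGGAA, a form of the site bound by PU.1-type factors of myeloid cells, was in Cat and Sod2 and in 23.3% of windows. These exact letters were not in the Cybb window, and shorter or other forms of the site were not searched. Windows of Nox4 and Cybb differed in base composition, with 67.2% and 34% G and C. The motifs and the base composition were chosen after the data were seen, and a match is a description of letters only.

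Libraries held 19056916 to 25371321 counts in genes. Smad7 was at 71.4, 74.6 and 77.2 CPM (counts scaled to library size, normalized by TMM) in the unstimulated control libraries and at 28.6, 28.4 and 31.1 in the unstimulated Smad7-KO libraries, so reads of the gene remained. With TGF-β1, Smad7 was at 141.9 to 150.3 CPM in control and 70 to 80.8 in Smad7-KO libraries. Unstimulated control library 2 stood apart from all others on the first principal component. Its deviations from the mean over libraries also fell with gene length (Spearman rho of -0.536 across genes), as did those of unstimulated control library 1 (-0.404) and TGF-β1 control library 2 (-0.372). In the other control libraries rho was 0.296 (unstimulated library 3), 0.201 and -0.169 (TGF-β1 libraries 1 and 3), and in the 6 Smad7-KO libraries it was 0.0715 to 0.383. Unstimulated control library 3 and TGF-β1 control library 1 thus lay within the Smad7-KO range. Values with the trend removed are given beside the member results whose call they change. Macrophage markers were abundant, and all 16 of the 16 listed were tested. Their summed level was 19010 to 29720 CPM in unstimulated control, 19140 to 22180 in TGF-β1 control, 27270 to 29830 in unstimulated Smad7-KO and 27000 to 30090 in TGF-β1 Smad7-KO libraries. The 10 fibroblast markers summed to 7437 to 11550 CPM over the 12 libraries, less than the macrophage markers in each condition. These lists differ in size and in the levels of their genes, so the sums do not compare numbers of cells. The 12 endothelial markers, 11 of them tested, summed to 297.2 to 347.7 CPM in control and 51.98 to 62.33 CPM in Smad7-KO libraries. Of the 8 neutrophil markers 2 were tested and Ly6g was at 0 in every library. In these bulk samples, fewer cells of a type and less RNA per cell cannot be told apart.

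On the scale of FPKM, which corrects for gene length, the members spanned a wide range of levels. In unstimulated control cells, Cyba was at 570.5 ± 258 FPKM (SD, n = 3), Sod1 at 417.9 ± 205, Hmox1 at 290.9 ± 36.7 and Sod3 at 150.2 ± 11.5. Cat followed at 105.3 ± 29.4 FPKM, Cybb at 92.46 ± 33.4, Sod2 at 28.92 ± 6.41, Nqo1 at 25.3 ± 4.5 and Gclc at 18.2 ± 5.33. Nox4 was the lowest at 1.74 ± 0.588 FPKM. The ranges of Cyba, Sod1 and Hmox1 overlapped from each to the next, as did those of Cat and Cybb, and of Sod2, Nqo1 and Gclc. In unstimulated Smad7-KO cells Hmox1, at 329.9 ± 51.9 FPKM, stood above Sod1, at 180.6 ± 2.58, without overlap. Nox4 was the lowest member in all 4 conditions.

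**Figure D1:**
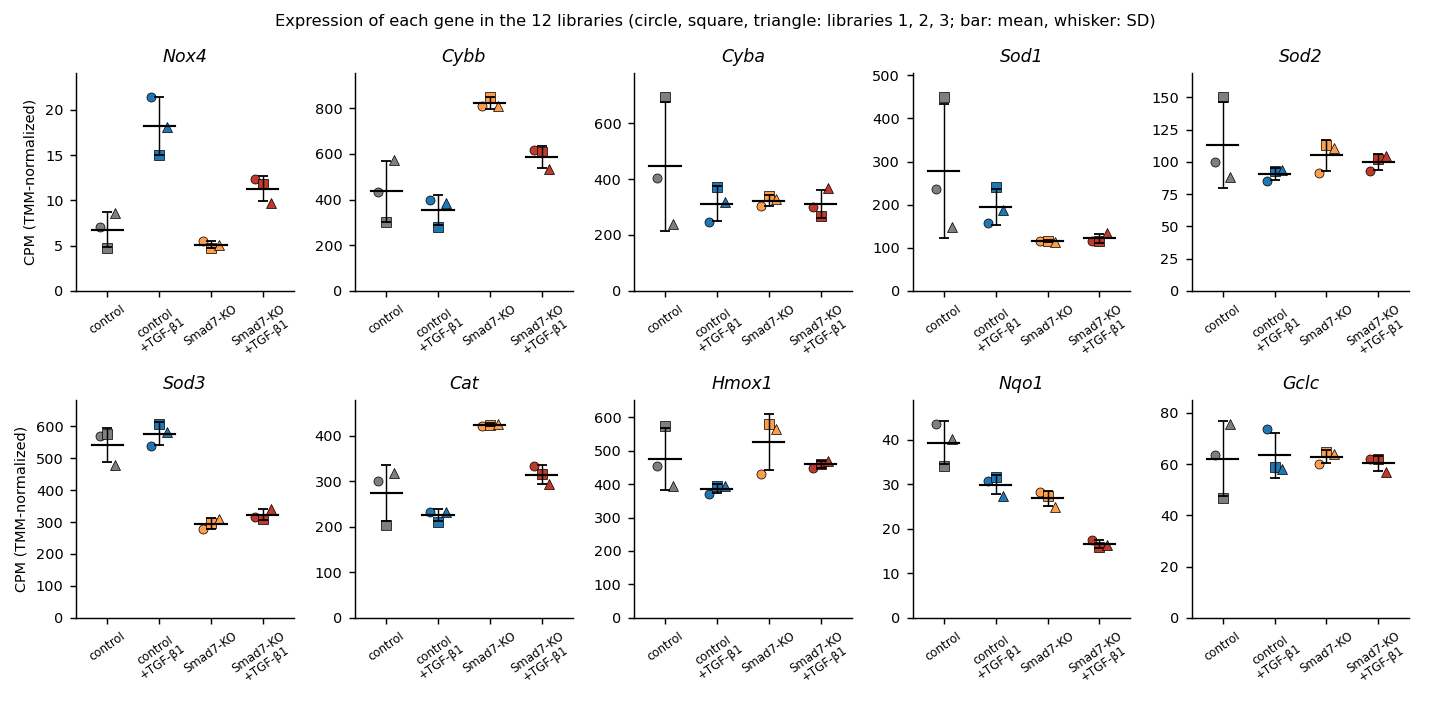
Level of each of the 10 genes (y axis, CPM normalized by TMM, from 0) in the 3 libraries of each condition (x axis). Points are libraries, bars the mean and whiskers the SD. Nox4 is highest in the 2 TGF-β1 conditions, Cybb and Cat in the 2 Smad7-KO conditions, and the square of unstimulated control library 2 lies far above the other control points for Cyba and Sod1.

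The first question was whether loss of Smad7 changed these genes in unstimulated cells. Cybb and Cat were higher, and Sod1, Sod3 and Nqo1 were lower, in Smad7-KO than in control cells (edgeR quasi-likelihood test, adjusted p of 0.05 or less). These were 5 of 10 members, against 25.8% of all genes tested. The libraries of the 2 groups did not overlap for these 5, as for 41.3% of all genes. The median log2 fold change was -0.26 over the members and -0.02 over all genes.

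Cybb was at 434.8, 303.1 and 571.8 CPM in the 3 unstimulated control libraries and at 808.5, 851.3 and 808.4 CPM in the Smad7-KO libraries. All Smad7-KO libraries lay above all control libraries. The log2 fold change was 0.91 (SE 0.205, adjusted p = 0.0107, edgeR), and it was 0.71 without unstimulated control library 2 (adjusted p = 0.00905). The call was lost when only these 6 libraries were fitted (adjusted p = 0.0713, edgeR). Against 25.8% of all genes that passed, 7 of the 16 macrophage markers were higher in Smad7-KO cells and 0 lower. As a share of their summed level, a quantity chosen after the data were seen, Cybb was 1.748%, 1.02% and 3.007% in control and 2.965%, 2.857% and 2.71% in Smad7-KO libraries. The groups then overlapped (exact permutation test, two-sided, p = 0.4, n = 3 against 3, smallest possible p 0.1). With 3 against 3 libraries this test could not give a p under 0.1, and the part of the macrophage markers in the Cybb result was not tested. The shares were not corrected for the trend on gene length, in which unstimulated control libraries 1, 2 and 3 differed (rho of -0.404, -0.536 and 0.296). With that trend removed the Cybb log2 fold change was 0.70 (adjusted p = 0.000591, edgeR).

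Nox4 was at 7.04, 4.74 and 8.56 CPM in control and at 5.5, 4.72 and 5.12 CPM in Smad7-KO cells. The groups overlapped and the difference did not pass the test (log2 fold change -0.41, SE 0.212, adjusted p = 0.152, edgeR). It passed without unstimulated control library 2 (-0.61, adjusted p = 0.0354) and with the length trend removed (-0.54, adjusted p = 0.0289). Cyba was at 402.4, 694.7 and 238.4 CPM in control and at 302.7, 338.9 and 327.8 CPM in Smad7-KO cells. The Smad7-KO values lay within the control range (-0.46, 95% interval -1.12 to 0.20, adjusted p = 0.253, edgeR), and the value depended on single control libraries. It was 0.02 without unstimulated control library 2 (adjusted p = 0.962), -0.76 and past the threshold without library 3 (adjusted p = 0.0124), and 0.18 with the length trend removed (adjusted p = 0.184).

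Among the dismutases, Sod3, the secreted form, was at 568.4, 575.5 and 479.1 CPM in control and at 277.3, 297.7 and 310.8 CPM in Smad7-KO libraries. Every Smad7-KO value was below every control value, and the log2 fold change was -0.87 (SE 0.106, adjusted p = 0.000369, edgeR). Among the endothelial markers 8 of the 11 tested were lower and 1 higher, against 25.8% of all genes that passed. Of 8 smooth muscle and pericyte markers 6 were tested, with 2 lower and 0 higher. The 10 fibroblast markers had 2 lower and 2 higher. The part of these markers in the Sod3 result was not tested.

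Sod1, the cytosolic form, was at 237.0, 450.6 and 147.8 CPM in control and at 116.3, 116.9 and 113.8 CPM in Smad7-KO libraries. The groups did not overlap, but the control libraries spread over a range wider than the distance between the groups. The log2 fold change was -1.27 (SE 0.312, adjusted p = 0.0163, edgeR). It was -0.73 without unstimulated control library 2 (adjusted p = 0.0173) and -0.60 with the trend on gene length removed (adjusted p = 0.00047). The call was lost without Smad7-KO library 1, 2 or 3 (adjusted p = 0.0565, 0.0577 and 0.06) and when only these 6 libraries were fitted (0.0996). Sod1 is a short gene (646 bases), shorter than all but 3.24% of genes tested. Its range overlaps that of Scaf4 on the opposite strand, with 0 shared exon bases. Sod2, the mitochondrial form, was at 88.1 to 150.6 CPM in control and 91.3 to 112.9 CPM in Smad7-KO cells and did not pass the test (-0.10, 95% interval -0.48 to 0.28).

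Cat, which breaks down hydrogen peroxide in peroxisomes, was at 301.1, 204.2 and 317.1 CPM in control and at 420.9, 424.4 and 426.6 CPM in Smad7-KO libraries. The Smad7-KO libraries lay close together and above all controls. The log2 fold change was 0.63 (SE 0.145, adjusted p = 0.0123, edgeR), 0.46 without unstimulated control library 2 (adjusted p = 0.00367), and not past the threshold when only these 6 libraries were fitted (adjusted p = 0.0974).

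Nqo1, a quinone reductase, was at 43.7, 34.2 and 40.2 CPM in control and at 28.2, 27.4 and 25.03 CPM in Smad7-KO libraries. The groups did not overlap. The log2 fold change was -0.55 (SE 0.114, adjusted p = 0.00734, edgeR). With the length trend removed it was -0.24 and no longer passed (adjusted p = 0.329), nor did it when only these 6 libraries were fitted (adjusted p = 0.0743). The other 2 Nrf2-type enzymes did not pass the test. Hmox1, which degrades heme, was at 393.5 to 574.6 CPM in control and 429.5 to 581.2 CPM in Smad7-KO cells (0.15, 95% interval -0.18 to 0.47), but was 0.50 and passed with the length trend removed (adjusted p = 0.00204). Gclc, the catalytic subunit of the first enzyme of glutathione synthesis, was at 46.7 to 75.9 and 60.2 to 64.9 CPM (0.02, 95% interval -0.33 to 0.37).

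**Figure D2:**
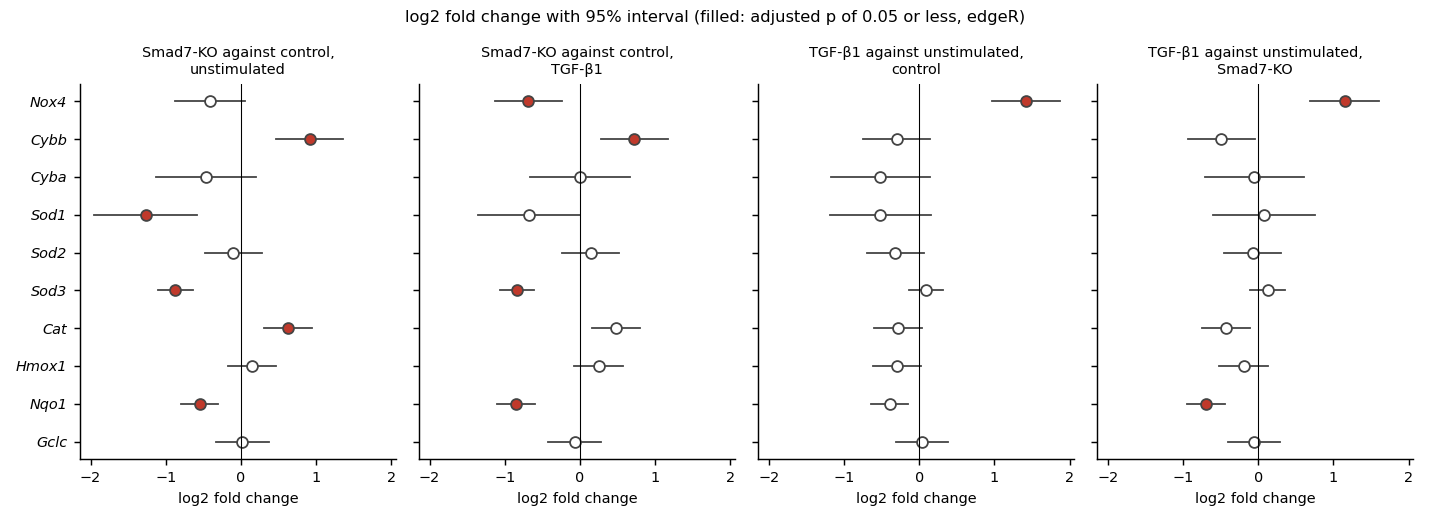
Log2 fold change (x axis) of each gene (y axis) in 4 comparisons, with the 95% interval as a line; filled points passed the test. Nox4 is the 1 gene filled on the right in both TGF-β1 comparisons, and Sod3 and Nqo1 are filled on the left in both Smad7-KO comparisons.

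The same comparison was made in TGF-β1-stimulated cells. Cybb was higher, and Nox4, Sod3 and Nqo1 were lower, in Smad7-KO than in control cells. These were 4 of 10 members, against 13% of all genes. Sod3 was at 537.7, 608.4 and 581.7 CPM in control and at 314.3, 310.5 and 342.1 CPM in Smad7-KO libraries. The groups were far apart, with a log2 fold change of -0.84 (SE 0.106, adjusted p = 0.000672, edgeR). Nqo1 was at 30.9, 31.6 and 27.5 CPM in control and at 17.6, 15.8 and 16.3 CPM in Smad7-KO libraries. It too had no overlap, with a log2 fold change of -0.85 (SE 0.116, adjusted p = 0.000912, edgeR). Both calls remained in all 12 fits that left out 1 library.

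The Nox4 and Cybb calls were less firm. Nox4 was at 21.5, 15.05 and 18.1 CPM in control and at 12.4, 11.8 and 9.8 CPM in Smad7-KO libraries with TGF-β1. The groups did not overlap (log2 fold change -0.69, SE 0.201, adjusted p = 0.0453, edgeR). Cybb was at 400.2, 278.4 and 386.5 CPM in control and at 616.5, 610.1 and 532.3 CPM in Smad7-KO libraries. These groups did not overlap either (0.72, SE 0.204, adjusted p = 0.0382, edgeR). Each of the 2 calls was kept in 2 of the 12 fits without 1 library, those without unstimulated control library 2 or 3, and lost in the other fits (highest adjusted p 0.14 for Nox4 and 0.15 for Cybb). Against 13% of all genes that passed, 7 of the 16 macrophage markers were higher and 0 lower. As a share of their summed level, Cybb overlapped between the groups (1.288% to 2.09% in control and 1.769% to 2.284% in Smad7-KO libraries). With TGF-β1 the Cybb share fell without overlap in Smad7-KO cells (mean 2.844% to 2.076%) and overlapped in control cells (1.925% and 1.707%). The Cyba share was lower in Smad7-KO than in control cells without overlap. Its means were 1.116% against 1.736% unstimulated and 1.095% against 1.478% with TGF-β1 (exact permutation test, p = 0.1 for each, the smallest possible). Cyba itself did not pass the test unstimulated (adjusted p = 0.253, edgeR) or with TGF-β1 (0.999). The share also depends on the marker sum, and what lowered it was not tested. None of these shares was corrected for the trend on gene length.

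Sod1, Cat and Hmox1 had no overlap between the TGF-β1 groups but did not pass the test, in a comparison in which 44.9% of all genes did not overlap. Cat was at 210.4 to 233.3 CPM in control and 292.9 to 334.2 CPM in Smad7-KO cells (0.48, adjusted p = 0.052, edgeR). Sod1 was at 156.5 to 240.7 and 115.7 to 133.4 CPM (-0.68, adjusted p = 0.174), and Hmox1 at 371.7 to 395.3 and 448.8 to 468.3 CPM (0.25, adjusted p = 0.287). All 3 passed when only these 6 libraries were fitted (adjusted p = 0.00381 for Cat, 0.00902 for Sod1 and 0.0353 for Hmox1) and with the length trend removed (0.55, -0.38 and 0.44, adjusted p = 0.0221, 0.00999 and 0.00444). Cat also passed with DESeq2 (adjusted p = 0.0103), and Cat and Sod1 passed without unstimulated control library 2 (0.000837 and 0.0134) or 3 (0.0191 and 0.0336). Cyba had almost the same mean in control and Smad7-KO cells, 311.6 and 311.5 CPM, but its interval was wide (-0.66 to 0.66). Sod2 (0.14) and Gclc (-0.07) did not pass.

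**Figure D3:**
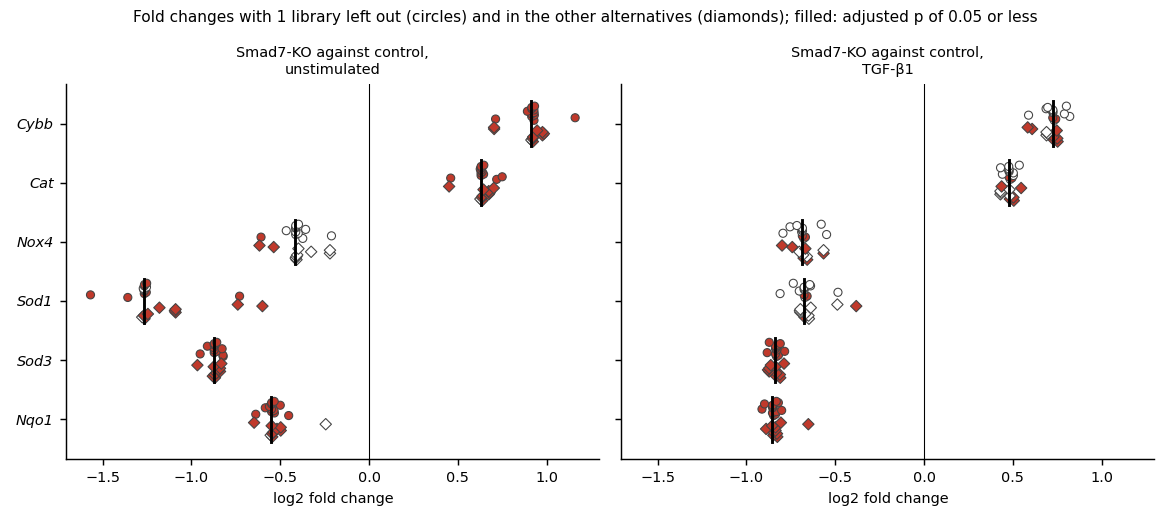
Log2 fold change (x axis) of 6 genes (y axis) between Smad7-KO and control cells in the unstimulated and the TGF-β1 comparison. The black bar is the reported value, circles are fits without 1 library, diamonds are the other alternatives, and filled symbols passed the test. Sod3 is filled throughout in both comparisons, and most circles of Nox4 and Cybb with TGF-β1 are open.

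The next question was how TGF-β1 changed the genes in cells of each genotype. Nox4 rose in both. In control cells it went from 7.04, 4.74 and 8.56 CPM to 21.5, 15.05 and 18.1 CPM. The stimulated libraries were all above the unstimulated ones, by a log2 fold change of 1.42 (SE 0.207, adjusted p = 0.00104, edgeR), a ratio of means of 2.69. Nox4 was the 1 of 10 members that passed, against 8.37% of all genes. In Smad7-KO cells it went from 5.5, 4.72 and 5.12 CPM to 12.4, 11.8 and 9.8 CPM. The groups again did not overlap (1.15, SE 0.21, adjusted p = 0.00411, edgeR), with a ratio of means of 2.21.

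In Smad7-KO cells Nqo1 fell with TGF-β1 as well, so that 2 of 10 members passed, against 10.2% of all genes. Its CPM went from 28.2, 27.4 and 25.03 to 17.6, 15.8 and 16.3. No values overlapped, and the log2 fold change was -0.70 (SE 0.116, adjusted p = 0.00205, edgeR). In control cells Nqo1 went from 34.2 to 43.7 CPM down to 27.5 to 31.6 CPM without overlap, which 19.8% of all genes also showed, and did not pass (-0.39, adjusted p = 0.0573, edgeR). It passed without unstimulated control library 2 (-0.48, adjusted p = 0.00707, edgeR) and with DESeq2 (-0.40, adjusted p = 0.0133). It also passed in edgeR with DESeq2 size factors (adjusted p = 0.0462) and without both second control libraries (adjusted p = 0.0107). In control cells Cybb was at 303.1 to 571.8 CPM without and 278.4 to 400.2 CPM with TGF-β1 (-0.30, adjusted p = 0.461, edgeR), and Cat at 204.2 to 317.1 and 210.4 to 233.3 CPM (-0.28, adjusted p = 0.312). Both ranges overlapped. Cat passed without unstimulated control library 2 (-0.46, adjusted p = 0.00406), and Cybb passed with the length trend removed (-0.37, adjusted p = 0.0425).

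Cybb and Cat had lower values with TGF-β1 in Smad7-KO cells, without overlap, which 39% of all genes showed, and did not pass the test. Cybb went from 808.4 to 851.3 CPM down to 532.3 to 616.5 CPM (-0.49, adjusted p = 0.193, edgeR). Cat went from 420.9 to 426.6 CPM down to 292.9 to 334.2 CPM (-0.43, adjusted p = 0.0914, edgeR). Without unstimulated control library 2, which is in neither group but enters the shared estimate of spread, both passed (adjusted p = 0.0362 and 0.00239). Both also passed when only these 6 libraries were fitted (9.43e-05 and 0.000146). Cat passed without unstimulated control library 3 (adjusted p = 0.0401), and Cybb with the length trend removed (adjusted p = 0.0108). The 3 dismutases, Cyba, Hmox1 and Gclc did not pass in either genotype. Without unstimulated control library 3, Cyba (-0.81 against -0.51, adjusted p = 0.0235) and Sod1 (-0.82 against -0.51, adjusted p = 0.0254) passed in control cells.

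Whether Smad7 loss changed the response to TGF-β1 was tested as an interaction. Among members 0 of 10 passed, against 0.0198% of all genes, and 0 of 10 had an unadjusted p under 0.05 against 2.59% of all genes (edgeR). DESeq2 also called 0. For Nox4 the response differed by -0.27 on the log2 scale (95% interval -0.91 to 0.37), and for Nqo1 by -0.30 (-0.66 to 0.05). For Sod1 it differed by 0.59 (-0.36 to 1.54), and for Cyba by 0.46 (-0.474 to 1.397). The other values were 0.24 for Sod2, 0.10 for Hmox1, 0.036 for Sod3, -0.092 for Gclc, -0.15 for Cat and -0.19 for Cybb. All 10 intervals include 0.

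Nox4 and Cybb are the catalytic subunits among the members, and their balance was compared on the FPKM scale. Nox4 made up 1.924%, 1.861% and 1.783% of the summed FPKM of both in unstimulated control libraries and 6.106%, 6.148% and 5.377% in TGF-β1 control libraries. In Smad7-KO libraries it made up 0.8178%, 0.6677% and 0.7616% without and 2.373%, 2.292% and 2.175% with TGF-β1. No 2 conditions overlapped in this share, which was lower in Smad7-KO than in control cells at both settings and higher with TGF-β1 in both genotypes. It draws on the same values as the tests above, and Nox4 and Cybb reads need not come from the same cells.

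**Figure D4:**
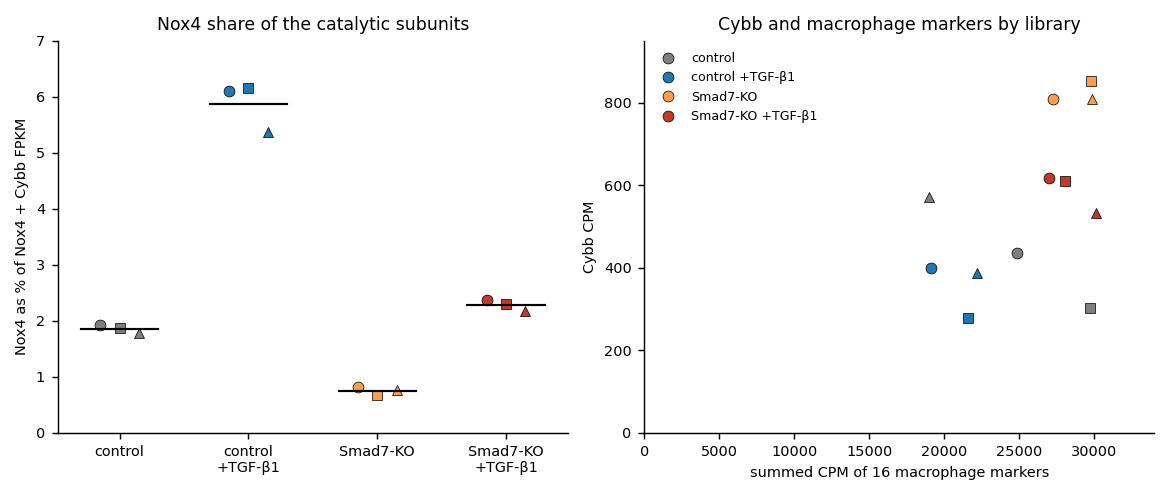
Left, Nox4 as a percent of the summed FPKM of Nox4 and Cybb (y axis) in the 4 conditions (x axis); points are libraries and bars means, and the 4 conditions do not overlap. Right, Cybb level (y axis, CPM) against the summed level of 16 macrophage markers (x axis, CPM) per library; unstimulated control library 2 (grey square) has a marker sum as high as the Smad7-KO libraries and a Cybb level of 303.1 CPM.

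Over the 12 libraries, the genes whose log2 CPM followed Nox4 most closely were Fstl1 (Pearson r of 0.988), Riok1 (0.987) and Papss2 (0.984). Those nearest to Cybb were Syk (0.994), Ccbe1 (0.991) and Dennd4b (0.99), and those nearest to Hmox1 were Lyz2 (0.91), Fam134a (0.909) and Arpc5 (0.907). Among members, Cat and Cybb had an r of 0.975. These values describe 12 libraries of 4 conditions that share normalization and the differences between conditions.

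Other genes of the same pathways were examined in 5 lists, of which 69 of 75 genes were tested. In unstimulated Smad7-KO against control cells 24 passed (34.8%, 8 higher and 16 lower, against 25.8% of all genes), and with TGF-β1 15 passed (21.7%, 7 higher and 8 lower, against 13%). With TGF-β1 against unstimulated, 12 passed in control (17.4%, against 8.37%) and 10 in Smad7-KO cells (14.5%, against 10.2%). None passed as an interaction (0 of 69, edgeR).

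Among 17 oxidase family members and regulators, 11 were tested. Ncf1 (p47phox), the organizer subunit of the phagocyte oxidase, was at 148.7 to 175.4 CPM in unstimulated control and 306.3 to 354.4 CPM in TGF-β1 control libraries. It was at 201.9 to 230.0 and 426.2 to 442.3 CPM in the Smad7-KO libraries. Ncf1 rose with TGF-β1 in control (0.97, SE 0.104, adjusted p = 0.000108, edgeR) and Smad7-KO cells (0.98), and was higher in Smad7-KO cells without (0.41, adjusted p = 0.0175) and with TGF-β1 (0.42, adjusted p = 0.0205). Rac2, a small GTPase of the phagocyte oxidase, was higher in Smad7-KO than in control cells with TGF-β1 (0.42) and was lower with TGF-β1 in control cells (-0.49). Sh3pxd2b, an adaptor of podosomes, was higher in Smad7-KO cells in both settings (1.197 and 1.02). In all, 3 of 11 were higher in unstimulated Smad7-KO cells, a share near the 25.8% of all genes that passed, and 4 of 11 in stimulated Smad7-KO cells, against 13%, with 0 lower in both.

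The glutathione list had the most lower values in Smad7-KO cells. In unstimulated cells 8 of 15 were lower and 0 higher, against 25.8% of all genes that passed. The median log2 fold change was -0.83, against -0.02 over all genes. With TGF-β1 4 of 15 were lower and 0 higher, against 13% of all genes that passed (median -0.50). Gstm1, a glutathione transferase, was at 421.6 to 550.7 CPM in unstimulated control and 224.0 to 248.6 CPM in Smad7-KO libraries (-1.03, SE 0.135, adjusted p = 0.000609, edgeR), and was lower with TGF-β1 too (-0.99). Gpx3, a secreted glutathione peroxidase, was lower in both settings (-0.83 and -0.68). The count in unstimulated cells was 11 with the length trend removed and 2 when only those libraries were fitted. Gclm, the partner subunit of Gclc, rose with TGF-β1 from 157.2 to 175.6 CPM up to 328.8 to 343.4 CPM in control libraries (1.03, SE 0.0872, edgeR). In Smad7-KO libraries it went from 137.6 to 149.1 up to 344.3 to 376.6 CPM (1.32), whereas Gclc passed in neither. Gsr, glutathione reductase, fell with TGF-β1 in both genotypes (-0.57 and -0.95).

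In the thioredoxin and peroxiredoxin list, 3 of 14 were lower and 1 higher in unstimulated Smad7-KO cells. That share was near the 25.8% of all genes that passed. Prdx2, a peroxiredoxin, was lower (-1.03, adjusted p = 0.0281, edgeR) and Sesn1, a stress-responsive sestrin, higher (0.47, adjusted p = 0.00287). Sesn1 and Txnip, an inhibitor of thioredoxin, fell with TGF-β1 in control (-0.75 and -1.02) and in Smad7-KO cells (-0.70 and -1.11). Srxn1, which repairs peroxiredoxins, fell in Smad7-KO cells (-0.43).

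Of 19 Nrf2 regulators and targets, 3 were higher and 3 lower in unstimulated Smad7-KO cells. That share was near the 25.8% of all genes that passed. Bach1, a repressor that competes with Nrf2 at its sites, was higher without (0.97, adjusted p = 0.00623, edgeR) and with TGF-β1 (0.73, adjusted p = 0.029). Maff, a small Maf partner, and Me1, malic enzyme, which makes NADPH, were lower in both settings (-0.83 and -0.85 for Maff, -0.81 and -0.59 for Me1). Mafk rose with TGF-β1 in control cells (0.70) and was lower in Smad7-KO than in control cells with TGF-β1 (-0.60). Among 10 genes of metal handling and other oxidant sources, 1 was higher and 2 were lower in unstimulated Smad7-KO cells. That share too was near the 25.8% of all genes that passed. Xdh, xanthine dehydrogenase, was the higher one (1.14, adjusted p = 0.00922). Maoa, a mitochondrial oxidase that makes hydrogen peroxide, was lower in Smad7-KO cells in both settings (-0.52 and -0.50) and fell with TGF-β1 in both genotypes (-0.86 and -0.84). The metallothioneins Mt1 and Mt2 fell with TGF-β1 in control cells (-1.73 and -1.85), and Mt2 also in Smad7-KO cells (-1.52).

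**Figure D5:**
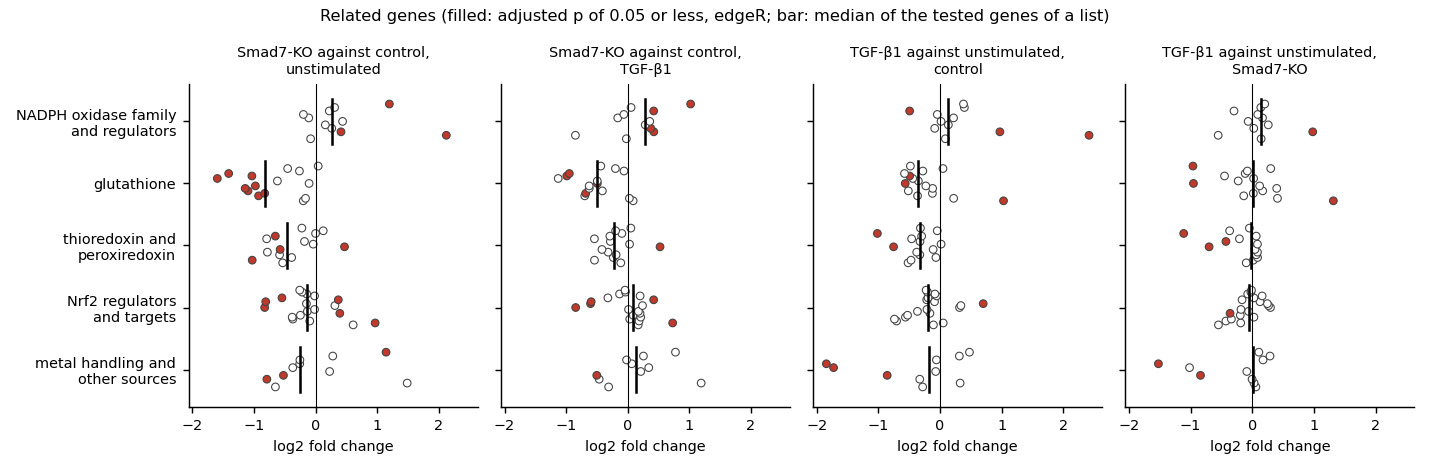
Log2 fold change (x axis) of the 69 tested related genes in 5 lists (y axis) and 4 comparisons. Points are genes, filled where the test was passed, and bars are list medians; the glutathione bar sits at -0.83 in unstimulated Smad7-KO against control cells.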

How the data were processed

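RNA was sequenced from 12 libraries of cultured cardiac fibroblasts. The deposited table of counts holds raw read counts per gene made by the authors, and the deposited FPKM values are those counts divided by gene length and library total, which was checked for 35275 genes within a relative tolerance of 1e-06. The submitters' processing notes name CASAVA, TopHat2 2.0, Cufflinks 2.1.1, HTSeq 0.6.1 and the builds mm10 and GRCm38.p6, and the strand setting is not given in the sources used here. Columns of 0 unknown samples were left out.

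Groups were taken from the sample labels. Counts were normalized by TMM, filtered with filterByExpr (minimum count 10) and fitted on all 12 libraries with the quasi-likelihood test of edgeR 4.0.16 in R 4.3.3. Adjusted p-values (Benjamini-Hochberg over 15150 genes) of 0.05 or less were called. The scripts were tested on simulated data. Library totals set the precision of low genes: Nox4 had 83 to 203 counts in the unstimulated control libraries. The study's methods name DESeq2, which was an alternative here (1.42.0), beside limma 3.58.1 on log2(FPKM + 1) and log2(FPKM + 0.1), with and without a filter at an FPKM of 1 in 3 libraries, DESeq2 size factors, no count filter, only the libraries of a comparison, a replicate block, a loess trend on gene length (span 0.3) removed, and each library left out. Leaving out both second control libraries, the Cybb and Cyba shares of macrophage markers, the motifs and the base composition were chosen after the data were seen.

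All 10 members were named in every comparison, and per related list up to 4 genes past the threshold with the lowest adjusted p, of which 1 is not reported here. Likeness was Pearson's r of log2 CPM (prior count 2) among genes with a mean log2 CPM of at least 1. The members and lists were chosen with earlier results of these data known. Emr1 in the file was used for Adgre1, Ctgf for Ccn2 and BC017643 for Cybc1, by gene ID.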

Additional observations from a re-analysis of the deposited data

How the results depend on the processing

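With 3 libraries a group, several member calls depended on the fit. Over fits without 1 library, members called ranged from 4 to 6 in unstimulated Smad7-KO against control cells, from 2 to 6 with TGF-β1, from 1 to 3 for TGF-β1 in control cells, from 2 to 4 for TGF-β1 in Smad7-KO cells, and were 0 for the interaction. When only the libraries of the comparison were fitted, the counts were 1 (against 5) in unstimulated Smad7-KO against control cells, 7 (against 4) in the same comparison with TGF-β1 and 4 (against 2) for TGF-β1 in Smad7-KO cells. That fit estimated the spread within those libraries alone and filtered genes anew (14401 to 14553 tested). With the length trend removed they were 6 in unstimulated Smad7-KO against control cells, 7 with TGF-β1, 2 for TGF-β1 in control cells and 3 in Smad7-KO cells, and with limma they were 2 in Smad7-KO against control cells with TGF-β1, both for log2(FPKM + 0.1) and without a filter. DESeq2 and its size factors each gave 2 for TGF-β1 in control cells. Without both second control libraries, chosen after the data were seen, they were 3 for TGF-β1 in control and 4 in Smad7-KO cells. The causes were not tested. The labels number the libraries of each group, but same-numbered libraries did not deviate together in every pair (r of 0.0593, 0.524 and 0.0124 in control cells with and without TGF-β1). With the number as a replicate block the counts were 5, 4, 1, 2 and 0, all as reported, while genes called in all fell from 3907 to 3222 in unstimulated cells. The Nox4 calls of TGF-β1 against unstimulated cells, in both genotypes, and the Sod3 calls of Smad7-KO against control cells held in all alternatives. So did the Nqo1 calls of Smad7-KO against control cells with TGF-β1 and of TGF-β1 in Smad7-KO cells. In TGF-β1-stimulated cells 44.1% of calls were higher in Smad7-KO cells, and the share was 52.9% with DESeq2, 51.2% with only those libraries, 50.1% with DESeq2 size factors, 33.2% with limma on log2(FPKM + 1), 31.6% on log2(FPKM + 0.1) and 31.4% without a filter. Over all genes called, unstimulated Smad7-KO against control gave 3907 genes, 660 when only those libraries were fitted and 7979 without unstimulated control library 3.

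Signs changed in 22 fits other than those without 1 library, and in 1 of them the value passed the threshold: Mt2 in unstimulated Smad7-KO cells with the length trend removed (0.48, adjusted p = 0.0372, edgeR). The log2 values in Smad7-KO against control cells with TGF-β1 were, for Cyba, 0.0272 (DESeq2), 0.003034 (only those libraries), 0.02489 (DESeq2 size factors), 0.007011 (no filter), 0.03701 (replicate block), 0.28 (length trend removed) and 0.15 (second control libraries left out). With the length trend removed they were 0.18 for Cyba and -0.03305 for Gclc in unstimulated cells, -0.0055 for Gclc with TGF-β1 in control cells, and -0.05277 for the Hmox1 interaction. Without the second control libraries they were 0.007807 for Cyba, 0.16 for Sod2, -0.15 for Gclc and 0.45 for Mt2 in unstimulated cells, -0.07702 for Gclc with TGF-β1 in control cells, and -0.03324 for Hmox1 and 0.03635 for Gclc as interactions. The Sod3 interaction was -0.03302 with limma on log2(FPKM + 1), with and without a filter, and -0.0328 on log2(FPKM + 0.1).

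Over fits without 1 library, signs changed for the values below, and no value passed the threshold in a fit that turned its sign. In unstimulated Smad7-KO against control cells the ranges were -0.76 to 0.0178 for Cyba, -0.14 to 0.19 for Gclc, -0.25 to 0.17 for Sod2 and -0.60 to 0.46 for Mt2. With TGF-β1 they were -0.15 to 0.15 for Cyba and -0.13 to 0.04814 for Gclc. For TGF-β1 they were -0.13 to 0.21 for Gclc (-0.135 at the lower end) and -0.82 to 0.01741 for Sod1 in control cells, and -0.19 to 0.04433 for Cyba in Smad7-KO cells. The interactions ran from -0.27 to 0.03499 for Cat, -6.043e-05 to 0.76 for Cyba, -0.44 to 0.02886 for Cybb, -0.26 to 0.08888 for Gclc, -0.04826 to 0.22 for Hmox1, -0.007535 to 0.39 for Sod2 and -0.01407 to 0.11 for Sod3.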
